A study of Rattus norvegicus with 40 samples.

Results

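The genes described here encode the sheet of matrix around brain capillaries and the inhibitors that slow its breakdown. There are 10 of them: Col4a1, Col4a2, Lamb1, Lamc1, Nid1, Fn1, Sparc, Timp1, Timp2 and Timp3. They were chosen by name, with earlier results of these data known, from 14217 named genes with a probe set of their own. Their probe sets were those annotated to a single one of these genes. All 10 were measured, by 18 of the 31042 probe sets. All 18 were among the 18625 probe sets bright enough to be tested, which covered 10304 named genes. Each gene is given by its brightest probe set on average, with its other probe sets beside it.

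The tissue was rat cerebral cortex, and its total RNA was hybridised to 40 Affymetrix arrays of 1 colour. The 20 preconditioned samples came from rats labelled as exposed to hypoxia, and the 20 sham samples from rats labelled as kept in normal oxygen. Each group is numbered 1 to 20, and the samples are listed in 4 runs of numbers, 1 to 5, 6 to 10, 11 to 15 and 16 to 20. Each run holds 5 arrays of each group. What the runs stand for is not in the labels. Neither are strain, age, oxygen level and length of exposure. No transgene, deletion or other agent is named for either group. The labels leave unsaid whether samples came from separate animals, so a p-value reflects only how these samples vary, and part of that may be technical. In bulk tissue, a change in the number of cells of a type and a change in RNA per cell cannot be told apart.

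A basement membrane is a thin sheet of extracellular matrix. Networks of type IV collagen and laminin are joined in it by nidogen and proteoglycans, and cells hold on to it through integrins and dystroglycan. In the brain it lies between the endothelium, the pericytes and the end feet of astrocytes, and it is part of the blood-brain barrier. Matrix metalloproteinases cut it during vessel growth and after injury, and tissue inhibitors of metalloproteinases (TIMPs) block these enzymes.

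Col4a1 and Col4a2, the chains of the most common type IV collagen, are transcribed away from each other from a shared promoter. The sequence between their starts is shown because both genes are among those compared. In RefSeq on GRCr8 the 76 bases between the 2 starts lie at chr16:84885521-84885596 and have 78.9% GC. They are printed on the plus strand, that of Col4a1, and none is in capitals because none of the motifs below occurs in them.
between Col4a1 and Col4a2: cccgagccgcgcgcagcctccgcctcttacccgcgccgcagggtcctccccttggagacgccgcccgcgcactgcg
The 250 bases before the start of Timp1 (chrX:3771123-3771372, minus strand) are shown as those of an inhibitor called in 1 run below. Timp3, also called in 1 run, is not shown. The capitals mark TGAGTAA, a variant of the binding motif of the AP-1 factors, whose first base lies 108 bases before the start.
Timp1 upstream: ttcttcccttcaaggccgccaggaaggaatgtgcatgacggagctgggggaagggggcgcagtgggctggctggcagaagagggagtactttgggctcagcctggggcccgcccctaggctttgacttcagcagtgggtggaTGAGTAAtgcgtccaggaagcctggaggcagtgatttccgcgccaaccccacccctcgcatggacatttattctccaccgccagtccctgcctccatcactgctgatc

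Of the 10 genes, 9 matched a promoter in the RefSeq table; Fn1 did not. Both strands of the 250 bases before each start were searched. TGAGTAA was found in Timp1 alone among the 9, and in 2.4% of 33469 promoters of that length. ACGTG, the core of the element bound by hypoxia-inducible factors, was found in 0 of the 9 and in 16.6% of all promoters. GCGTG, a second form of that core, was found in Col4a1, Col4a2, Lamc1 and Timp3 and in 25.9% of all promoters. The searched windows of Col4a1 and Col4a2 share the 76 bases printed above. TGANTCA, a loose form of the AP-1 consensus with any base in its middle, was found in 0 of the 9 and in 6.3% of all promoters. A match describes these letters only.

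Over all arrays, 3 of the 10 genes were higher in preconditioned cortex: Col4a1 by 1.23-fold, Fn1 by 1.25-fold and Lamc1 by 1.13-fold. None was called lower. The test was limma's moderated test on log2 intensity, with Benjamini-Hochberg adjustment of the p-values over 18625 probe sets and a threshold of 0.05. By that rule 0.891% of all probe sets were called, 113 higher and 53 lower. After median centring 223 were higher and 23 lower, so the balance of directions over all probe sets depended on the scaling. The median difference of the 10 genes, preconditioned minus sham, was 0.15 on the log2 scale, and 9 of the 10 were above 0. The median over all named genes was -0.02. The 10 genes were chosen with earlier results of these data known, so their counts and medians beside those of all probe sets are descriptions only.

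By run, the counts called were 3 of 10 in numbers 1 to 5 (Col4a1, Fn1 and Timp3) and 2 of 10 in numbers 6 to 10 (Col4a1 and Fn1). In numbers 11 to 15 Timp1 alone was called, and in numbers 16 to 20 none was. All calls were higher in preconditioned arrays. The share of all probe sets called was 2.39% in numbers 1 to 5, 2.22% in numbers 6 to 10, 0.0698% in numbers 11 to 15 and 0% in numbers 16 to 20. Probe sets called in numbers 1 to 5 were 230 higher and 215 lower, and 347 higher and 85 lower after median centring. Those in numbers 6 to 10 were 204 higher and 209 lower, and 409 higher and 81 lower after median centring. Quantile normalization gave 262 higher and 149 lower in numbers 1 to 5. In numbers 16 to 20 limma called 0 of 18625, with 952 at an unadjusted p under 0.05. The medians of the 10 differences were 0.15, 0.22, 0.19 and -0.004 in the order of the runs, and 9, 9, 8 and 5 of the 10 lay above 0. The runs are subsets of the 40 arrays, so their values and the one over all arrays are not independent.

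**Figure D1:**
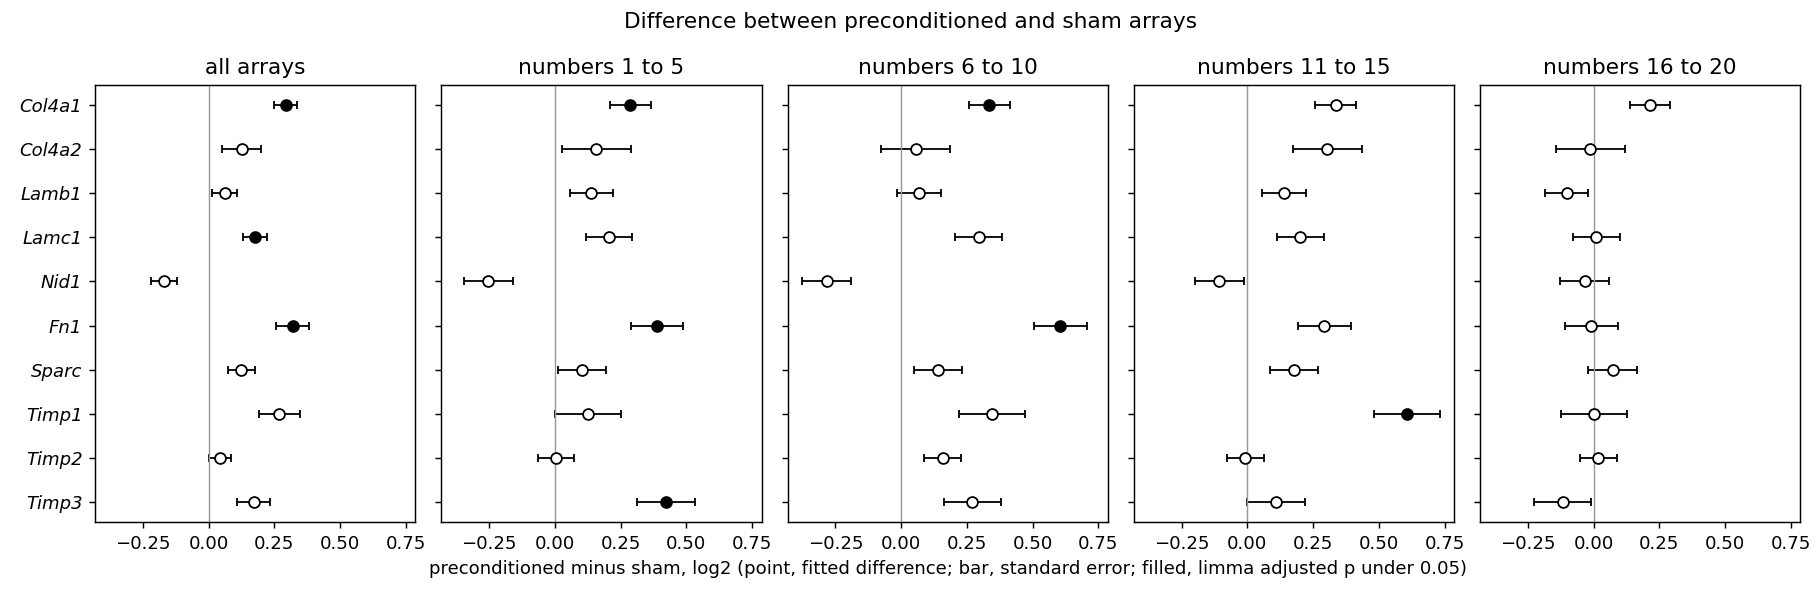
Fitted difference, preconditioned minus sham, for each gene (log2 intensity, horizontal axis) over all arrays and in each run of sample numbers. Points are differences, bars their standard errors, and filled points have a limma adjusted p under 0.05. Col4a1 lies at 0.21 or above in every panel, Nid1 below 0 in every panel, and Fn1 at 0.61 in numbers 6 to 10 and -0.01 in numbers 16 to 20.

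Preconditioned arrays 5 and 6 stood apart from the rest. Their array medians were 5.59 and 5.53 on the log2 scale, against 5.71 to 5.82 on the other 38, and their positions on the second principal component were 35.6 and 34.3, against -12.7 to 12.2. Results that rest on numbers 1 to 10 are therefore also given without them where a call changed. Of the markers of cortical cells fixed for this report, 10 of 10 neuronal, 13 of 14 astrocytic, 7 of 10 oligodendrocytic and 17 of 20 endothelial genes were measured. None of the markers of neurons, oligodendrocytes or of choroid plexus and blood was called between the groups in any of the 5 comparisons. By the same count 4.33% of all probe sets were called. In the runs called above, the sums of the 17 endothelial markers did not overlap in numbers 1 to 5 or in numbers 6 to 10. They are given with the marker lists below.

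Col4a1 encodes the alpha1 chain of type IV collagen. Its intensity over all arrays had a lowest, median and highest value of 308, 355 and 487 in preconditioned arrays, against 274, 297 and 331 in sham arrays. The difference was 0.29 ± 0.04 on the log2 scale (SE, n = 20 each, limma adjusted p = 0.000128). All 20 preconditioned arrays lay above the sham median, and 15 of 20 lay above every sham array.

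Col4a1 in numbers 1 to 5 read 355, 395, 339, 311 and 389 in preconditioned arrays, against 280, 300, 294, 280 and 306 in sham arrays. The values in numbers 6 to 10 were 341, 419, 418, 381 and 348 in preconditioned arrays, against 287, 309, 305, 319 and 286 in sham arrays. The groups did not overlap in either run. How many of all probe sets show no overlap in a run was not counted, so here and below an absence of overlap is a description only. The differences were 0.29 ± 0.08 (limma adjusted p = 0.0307) and 0.34 ± 0.08 (limma adjusted p = 0.0105).

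Col4a1 in numbers 11 to 15 read 377, 487, 397, 388 and 325 in preconditioned arrays, against 277, 321, 331, 315 and 310 in sham arrays. Here preconditioned array 15 was lower than the highest sham array, and the other 4 lay above all sham arrays. In numbers 16 to 20 the values were 319, 308, 355, 354 and 326 in preconditioned arrays, against 300, 290, 276, 291 and 274 in sham arrays. These groups did not overlap, and the difference missed the threshold, as did that of every probe set in this run. The differences were 0.34 ± 0.08 (limma adjusted p = 0.0678) in numbers 11 to 15 and 0.21 ± 0.08 (limma adjusted p = 0.917) in numbers 16 to 20.

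The call over all arrays held in 56 of 56 alternative settings, where the difference lay between 0.26 and 0.33. The call in numbers 1 to 5 was lost without preconditioned arrays 5 and 6 (limma adjusted p = 0.087), and without preconditioned array 2 or 5 or sham array 1, 3 or 4 alone (limma adjusted p = 0.0886, 0.107, 0.0653, 0.0582 and 0.0801). The difference in numbers 11 to 15 passed in 6 of 21 alternatives, 1 of them the second probe set given below. It passed without preconditioned array 15 (limma adjusted p = 0.0162) and without preconditioned arrays 5 and 6 (limma adjusted p = 0.0414). Quantile normalization and a filter at the 60th percentile also gave a pass (limma adjusted p = 0.0487 and 0.0467). So did the sample number as a block, which pairs same-numbered arrays of the 2 groups (limma adjusted p = 0.0374). From the 10 arrays of a run alone, the calls in numbers 1 to 5 and 6 to 10 were lost (limma adjusted p = 0.0868 and 0.0667). The moderated F-test of whether the preconditioning effect differed between runs gave an adjusted p of 0.845 for Col4a1.

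The second probe set of Col4a1 was also higher over all arrays, by 0.26 ± 0.06 (limma adjusted p = 0.0304). The values of that probe set in numbers 11 to 15 were 349, 454, 324, 298 and 342 in preconditioned arrays, against 203, 240, 248, 233 and 227 in sham arrays. These groups did not overlap, and the difference was 0.61 ± 0.10 (limma adjusted p = 0.00423). In numbers 16 to 20 it read 248, 218, 325, 264 and 253 in preconditioned arrays, against 246, 280, 273, 260 and 272 in sham arrays. There the groups overlapped and the difference was -0.04 ± 0.10 (limma adjusted p = 0.992), so the 2 probe sets disagreed in that run. In numbers 1 to 5 and 6 to 10 its differences of 0.17 and 0.28 missed the threshold (limma adjusted p = 0.383 and 0.126).

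**Figure D2:**
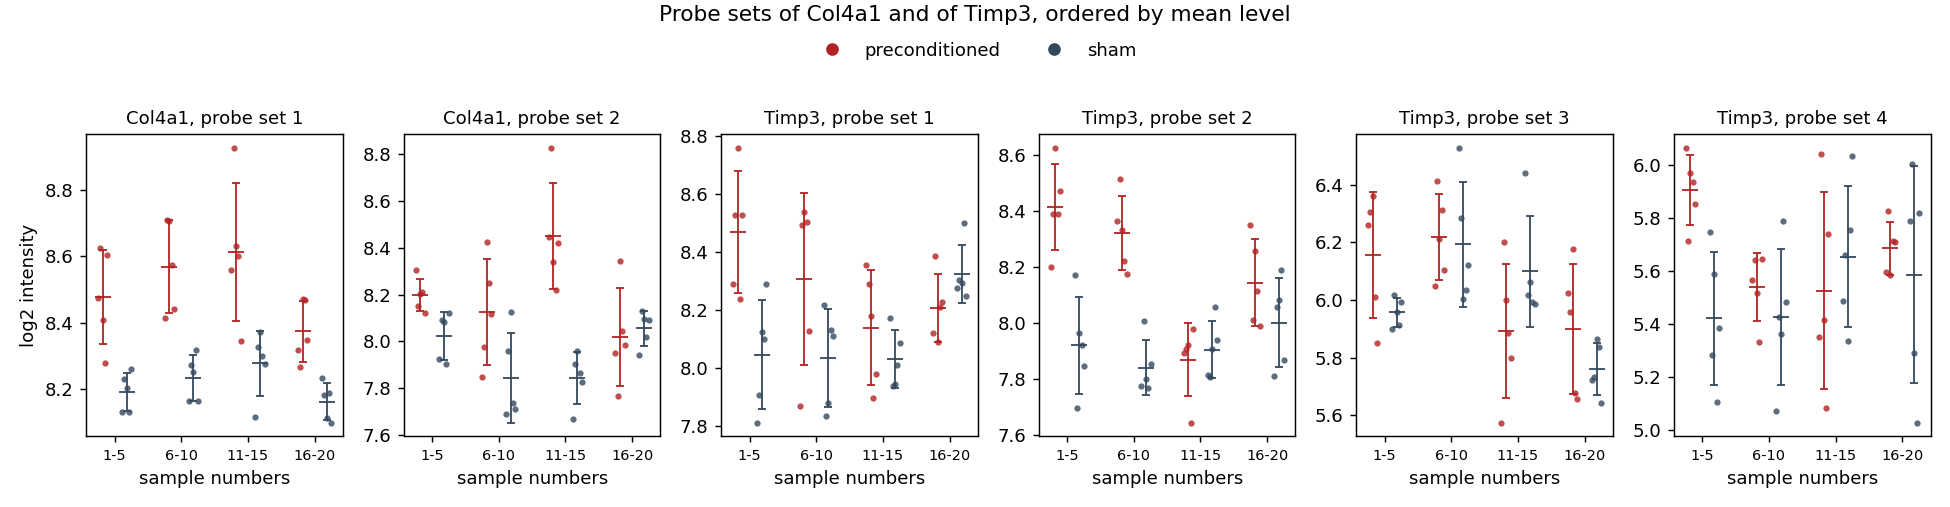
Log2 intensity (vertical axis) of each probe set of Col4a1 and Timp3 by run of sample numbers (horizontal axis), preconditioned left of sham. Points are arrays, and lines and bars are the mean and SD of 5 arrays. The groups of the second Col4a1 probe set do not overlap in numbers 11 to 15, with a difference of 0.61, and overlap in numbers 16 to 20. The groups of the second Timp3 probe set do not overlap in numbers 1 to 5 and 6 to 10.

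Col4a2 encodes the alpha2 chain, which joins with alpha1 chains in the collagen molecule. The lowest, median and highest intensities were 141, 175 and 332 in preconditioned arrays, against 132, 166 and 200 in sham arrays. The difference of 0.13 ± 0.07 did not pass (limma adjusted p = 0.426), and its 95% interval was -0.02 to 0.27. Its values in numbers 11 to 15 were 235, 332, 161, 185 and 204 in preconditioned arrays, against 171, 160, 198, 168 and 182 in sham arrays. Arrays 11, 12 and 15 lay above all sham arrays there, and arrays 13 and 14 did not (0.30 ± 0.13, limma adjusted p = 0.432). In the other runs the differences were 0.16, 0.06 and -0.01, and the groups overlapped in each.

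The log2 ratio of Col4a1 to Col4a2 within an array compares the signals of their probe sets. The ratio was 0.99 ± 0.26 in preconditioned arrays and 0.82 ± 0.17 in sham arrays (SD, n = 20 each), a difference of 0.17. A two-sided permutation test of group labels within runs gave p = 0.0075 (100000 permutations). This test was chosen after the values had been seen, so its p-value is a description only. With the second probe set of Col4a1 the difference was 0.13 and p was 0.054, past the threshold no longer. By run the difference of the ratio was 0.13, 0.28, 0.03 and 0.23 with the first probe set of Col4a1. It was not computed by run with the second.

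Lamc1 encodes the gamma1 chain of laminin, found in most laminins of vessels. Its intensity had a lowest, median and highest value of 199, 271 and 315 in preconditioned arrays, against 209, 234 and 273 in sham arrays. The groups overlapped, with 10 of 20 preconditioned arrays above every sham array and 1 below all. The difference was 0.18 ± 0.05 (limma adjusted p = 0.0439). This call stood close to the threshold and held in 27 of 56 alternatives, over which its adjusted p lay between 0.00761 and 0.515. It was lost when any 1 of 23 of the 40 arrays was left out, for example without preconditioned array 3 (limma adjusted p = 0.0692), as well as without numbers 6 to 10 (limma adjusted p = 0.515) and without preconditioned arrays 5 and 6 (limma adjusted p = 0.099).

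Lamc1 in numbers 6 to 10 read 295, 262, 301, 314 and 266 in preconditioned arrays, against 228, 225, 234, 238 and 244 in sham arrays. The groups did not overlap, and the difference of 0.29 ± 0.09 missed the threshold (limma adjusted p = 0.0635). Its second probe set read 153, 166, 187, 142 and 147 in preconditioned arrays of the same run, against 113, 116, 116, 113 and 114 in sham arrays. That probe set passed in this run, at 0.47 ± 0.09 (limma adjusted p = 0.00264), and did not pass over all arrays, at 0.16 ± 0.06 (limma adjusted p = 0.166).

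Lamb1 encodes the beta1 chain of laminin. Lowest, median and highest intensities were 238, 310 and 356 in preconditioned arrays, against 260, 284 and 361 in sham arrays. No preconditioned array lay above all sham arrays. The difference was 0.06 ± 0.05 (95% interval -0.03 to 0.16, limma adjusted p = 0.566), and by run it was 0.14, 0.07, 0.14 and -0.10.

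Nid1 encodes nidogen 1, which links laminin to type IV collagen. It was the only one of the 10 genes with a difference below 0 over all arrays. Its intensity had a lowest, median and highest value of 362, 492 and 616 in preconditioned arrays, against 470, 543 and 680 in sham arrays. The difference of -0.17 ± 0.05 missed the threshold (95% interval -0.27 to -0.07, limma adjusted p = 0.0672), and 7 of 20 preconditioned arrays lay below every sham array. It passed in 4 of 56 alternatives. These were without numbers 16 to 20 (limma adjusted p = 0.019), as the average of the 4 run differences (limma adjusted p = 0.0292), with the run as a covariate (limma adjusted p = 0.0409) and without preconditioned array 17 (limma adjusted p = 0.0422).

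Nid1 in numbers 1 to 5 read 511, 516, 550, 455 and 446 in preconditioned arrays, against 596, 543, 601, 575 and 633 in sham arrays. Preconditioned array 3 was higher than the lowest sham array, and the other 4 lay below all of them. Its values in numbers 6 to 10 were 362, 467, 561, 457 and 493 in preconditioned arrays, against 541, 493, 529, 680 and 595 in sham arrays, and the groups overlapped. The differences were -0.25 ± 0.09 (limma adjusted p = 0.142) and -0.28 ± 0.09 (limma adjusted p = 0.0917). The second passed without preconditioned array 8 (limma adjusted p = 0.0298). The second probe set of Nid1 differed from this, at -0.02 ± 0.05 over all arrays (limma adjusted p = 0.882) and 0.08 in numbers 1 to 5.

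**Figure D3:**
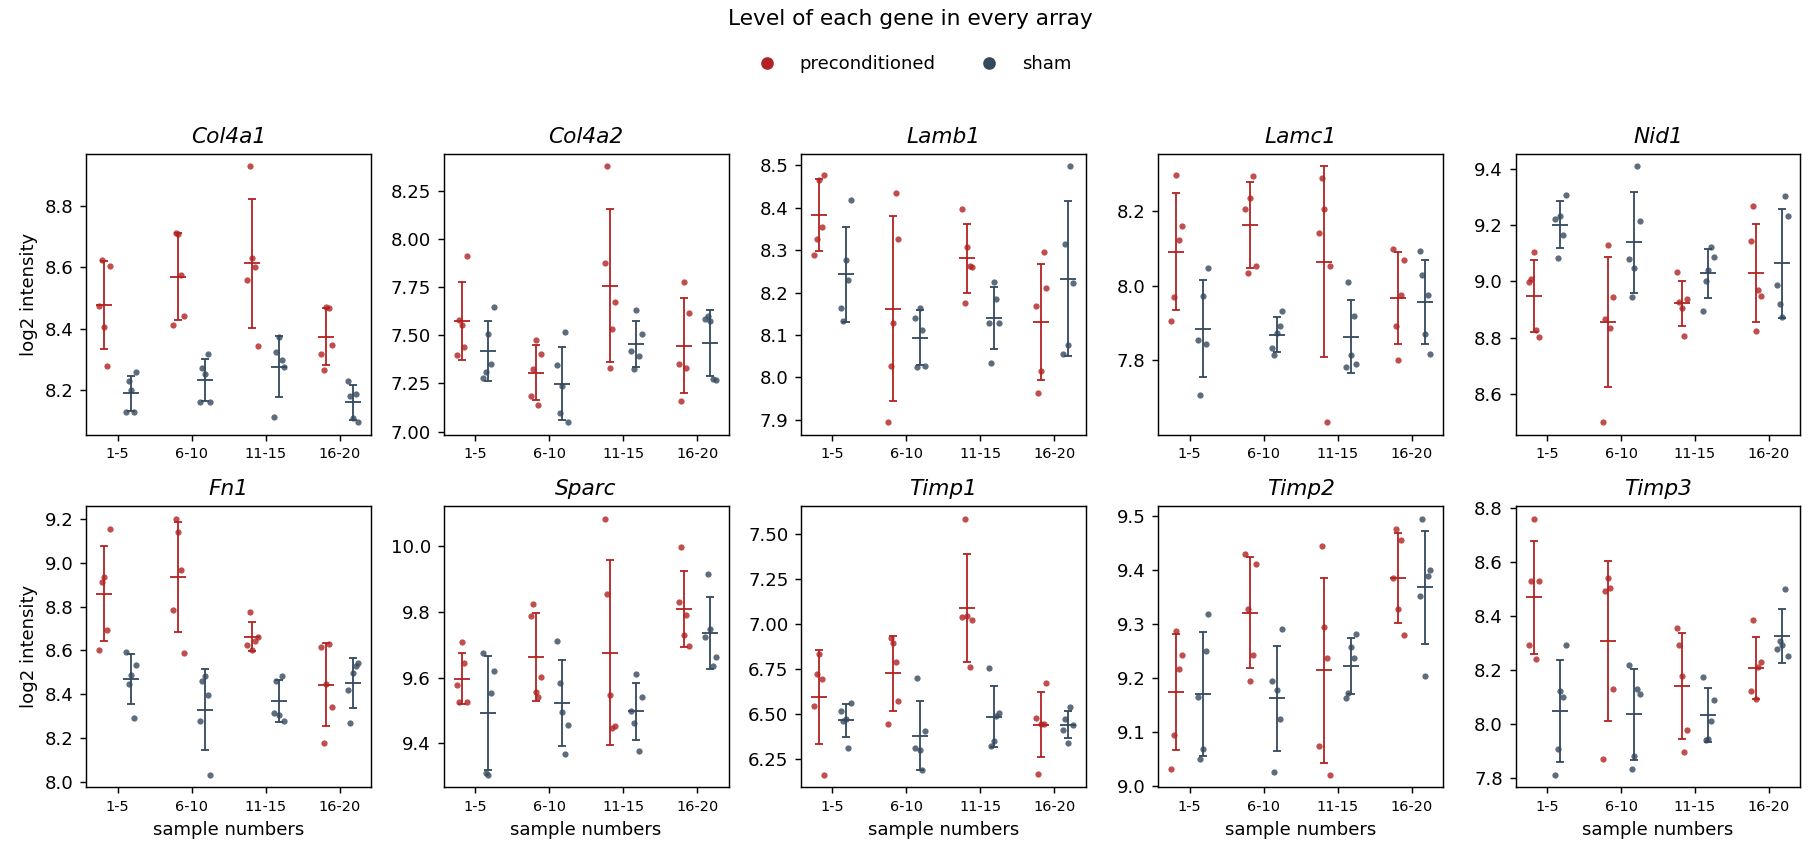
Log2 intensity (vertical axis) of each of the 10 genes in every array, by run of sample numbers (horizontal axis), preconditioned left of sham. Points are arrays, and lines and bars are the mean and SD of 5 arrays. Col4a1 groups do not overlap in numbers 1 to 5, 6 to 10 and 16 to 20, and Fn1 groups do not overlap in the first 3 runs. How many of all probe sets show no overlap was not counted. Vertical scales differ between genes, and levels of different genes are not comparable.

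Fn1 encodes fibronectin, an adhesive glycoprotein bound by integrins that is found in plasma and in vessel matrix. Over all arrays its intensity had a lowest, median and highest value of 290, 402 and 588 in preconditioned arrays, against 262, 350 and 386 in sham arrays. The difference was 0.32 ± 0.06 (limma adjusted p = 0.00546), and 16 of 20 preconditioned arrays lay above every sham array. The call held in 54 of 56 alternatives. It was lost without numbers 1 to 5 (limma adjusted p = 0.0996) and without numbers 6 to 10 (limma adjusted p = 0.259).

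Fn1 in numbers 1 to 5 read 389, 481, 489, 414 and 569 in preconditioned arrays, against 386, 348, 359, 313 and 370 in sham arrays. The values in numbers 6 to 10 were 441, 588, 564, 501 and 385 in preconditioned arrays, against 310, 352, 358, 337 and 262 in sham arrays. Neither run showed an overlap, and the lowest preconditioned value of numbers 1 to 5 was close to the highest sham value. The differences were 0.39 ± 0.10 (limma adjusted p = 0.0249) and 0.61 ± 0.10 (limma adjusted p = 0.000275), the second a 1.52-fold change. The call in numbers 1 to 5 was lost without preconditioned arrays 5 and 6 (limma adjusted p = 0.104), and without preconditioned array 2, 3 or 5 or sham array 4 alone (limma adjusted p = 0.0531, 0.058, 0.118 and 0.086). The call in numbers 6 to 10 held in 21 of 21 alternatives.

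Fn1 in numbers 11 to 15 read 395, 439, 389, 400 and 405 in preconditioned arrays, against 319, 352, 317, 358 and 311 in sham arrays. The groups did not overlap, and the difference of 0.29 ± 0.10 missed the threshold (limma adjusted p = 0.313). In numbers 16 to 20 it read 392, 290, 349, 396 and 325 in preconditioned arrays, against 342, 309, 362, 369 and 373 in sham arrays. These groups overlapped, and the difference was -0.01 ± 0.10 (95% interval -0.21 to 0.19, limma adjusted p = 0.998).

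The test of whether the effect differed between runs called 0 of the 10 genes, while 0.762% of all probe sets were called. At an unadjusted p under 0.05 limma's F-test had 2400 of 18625 probe sets. Fn1 had the smallest p of the 10, with an unadjusted p of 0.00105 and an adjusted p of 0.088. It crossed the threshold in 4 of 50 alternatives. The lowest p came with the sample number as a block (limma adjusted p = 0.00534). The others were without preconditioned array 10 (limma adjusted p = 0.0226), without preconditioned arrays 5 and 6 (limma adjusted p = 0.0497) and after median centring (limma adjusted p = 0.048). Timp1 and Timp3 each had an adjusted p of 0.22, and Lamc1 one of 0.55. The adjusted p of the other 6 genes lay between 0.531 and 0.945.

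Sparc encodes a collagen-binding matricellular protein made by endothelium and astrocytes. Intensities of Sparc had a lowest, median and highest value of 698, 816 and 1085 in preconditioned arrays, against 632, 759 and 966 in sham arrays. The groups overlapped, with 2 of 20 preconditioned arrays above every sham array. The difference was 0.12 ± 0.05 (limma adjusted p = 0.227), and in the order of the runs it was 0.10, 0.14, 0.18 and 0.07. Its second probe set gave -0.02 ± 0.10 over all arrays (limma adjusted p = 0.952).

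Timp1 encodes the inhibitor of the family that is best known for induction by injury and cytokines. Over all arrays the lowest, median and highest intensities were 71.7, 105 and 192 in preconditioned arrays, against 73.0, 87.6 and 108 in sham arrays. The difference of 0.27 ± 0.08 missed the threshold (limma adjusted p = 0.0737). This miss depended on the processing. Timp1 passed after quantile normalization (limma adjusted p = 0.0329), after median centring (limma adjusted p = 0.0195), with the run as a covariate (limma adjusted p = 0.027) and as the average of the 4 run differences (limma adjusted p = 0.00952). It also passed without numbers 16 to 20 (limma adjusted p = 0.022), and without preconditioned arrays 5 and 6, array 5 or array 17 (limma adjusted p = 0.0364, 0.0457 and 0.0436). The sample number as a block gave a pass as well (limma adjusted p = 0.0451).

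Timp1 in numbers 11 to 15 read 132, 192, 132, 108 and 130 in preconditioned arrays, against 108, 80.2, 81.7, 90.0 and 90.8 in sham arrays. Every preconditioned array lay above every sham array, the closest being 108.5 in preconditioned array 14 and 108.1 in sham array 11. The difference was 0.61 ± 0.13, a 1.52-fold change (limma adjusted p = 0.030). It held in 12 of 21 alternatives and was lost with only the 10 arrays of the run (limma adjusted p = 0.177). It was also lost without preconditioned array 11, 12 or 15 (limma adjusted p = 0.0769, 0.197 and 0.0633) and without sham array 12, 13, 14 or 15 (limma adjusted p = 0.114, 0.13, 0.074 and 0.0863).

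Timp1 in numbers 6 to 10 read 87.2, 122, 119, 111 and 95.3 in preconditioned arrays, against 79.6, 104, 78.7, 73.0 and 84.7 in sham arrays. Arrays 7, 8 and 9 lay above all sham arrays, and the difference was 0.34 ± 0.13 (limma adjusted p = 0.137). In numbers 1 to 5 and 16 to 20 the differences were 0.13 ± 0.13 and 0.00 ± 0.13. The groups overlapped in both.

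Timp2 encodes an inhibitor that is made steadily by many cells. Intensities of Timp2 had a lowest, median and highest value of 519, 623 and 712 in preconditioned arrays, against 521, 597 and 721 in sham arrays. The groups overlapped almost fully, with a difference of 0.04 ± 0.04 (95% interval -0.04 to 0.13, limma adjusted p = 0.667). Its second probe set read 421, 345, 365, 323 and 417 in preconditioned arrays 6 to 10, against 288, 239, 264, 307 and 330 in sham arrays. Preconditioned array 9 was below the highest sham array there, and the difference was 0.39 ± 0.10 (limma adjusted p = 0.0222). In the same run the first probe set gave 0.16 ± 0.07 (limma adjusted p = 0.235).

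Timp3 encodes the inhibitor that binds to the matrix itself. Over all arrays its intensity had a lowest, median and highest value of 234, 308 and 433 in preconditioned arrays, against 225, 278 and 362 in sham arrays, a difference of 0.17 ± 0.06 (limma adjusted p = 0.176). In numbers 1 to 5 it read 313, 370, 433, 302 and 370 in preconditioned arrays, against 225, 240, 279, 274 and 314 in sham arrays. Arrays 2, 3 and 5 lay above all sham arrays. The difference was 0.42 ± 0.11, a 1.34-fold change (limma adjusted p = 0.0269). It held in 14 of 21 alternatives and was lost without preconditioned array 2, 3 or 5 (limma adjusted p = 0.0558, 0.0947 and 0.067) and without sham array 1 or 2 (limma adjusted p = 0.0817 and 0.0737).

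Timp3 in numbers 6 to 10 read 234, 360, 372, 363 and 280 in preconditioned arrays, against 298, 228, 236, 280 and 277 in sham arrays. Arrays 7, 8 and 9 stood above all sham arrays and arrays 6 and 10 did not (0.27 ± 0.11, limma adjusted p = 0.186). In numbers 16 to 20 it read 278, 335, 273, 297 and 300 in preconditioned arrays, against 310, 317, 314, 362 and 305 in sham arrays. Here 4 of 5 preconditioned arrays lay below all sham arrays, and the difference was -0.12 ± 0.11 (limma adjusted p = 0.957).

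The second probe set of Timp3 was called higher over all arrays, at 0.27 ± 0.06 (limma adjusted p = 0.0204). In numbers 1 to 5 it read 294, 335, 394, 335 and 355 in preconditioned arrays, against 288, 207, 250, 243 and 230 in sham arrays. Its values in numbers 6 to 10 were 329, 365, 322, 298 and 288 in preconditioned arrays, against 219, 257, 223, 218 and 231 in sham arrays. The groups did not overlap in either run, with differences of 0.49 ± 0.09 (limma adjusted p = 0.000469) and 0.48 ± 0.09 (limma adjusted p = 0.000854). In numbers 11 to 15 and 16 to 20 the differences were -0.04 ± 0.09 and 0.14 ± 0.09. For this probe set the effect differed between runs (limma F-test, adjusted p = 0.0239). The 2 dimmest probe sets of Timp3, with medians of 65.6 and 51.2 in preconditioned arrays, were not called in any comparison.

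Among sham arrays alone, limma's F-test between the 4 runs called 0 of the 10 genes and 13.7% of all probe sets. For 10 genes, a count of 0 is not far from that share. At an unadjusted p under 0.05 the same limma F-test had 5447 of 18625 probe sets. The adjusted p of the 10 genes lay between 0.095 for Timp2 and 0.915 for Timp1. In sham arrays 16 to 20 minus sham arrays 1 to 5, Sparc gave 0.24 ± 0.09, Timp2 0.20 ± 0.07 and Timp3 0.28 ± 0.11. As a single difference that of Timp2 passed (limma adjusted p = 0.0488). Those of Sparc and Timp3 did not (limma adjusted p = 0.0646 and 0.0802).

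The genes were also compared with each other over the 40 arrays, after the mean of each group and run had been taken from the values. Of 45 pairs, 2 passed a permutation test of Pearson's r within groups and runs, adjusted over the 45 pairs. Over all pairs r ranged from -0.15 to 0.56 with a median of 0.19. Arrays share a scaling and an overall quality, and genes measured on the same arrays are not independent.

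Col4a1 and Fn1 had r = 0.52 and rho = 0.54 within groups and runs (n = 40, permutation p = 0.0013 and 0.0028, adjusted p = 0.03 and 0.088). Without the 2 arrays farthest from the median of Col4a1, r was 0.59. With the group means left in, r was 0.70. Nid1 and Timp3 had r = 0.56 and rho = 0.47 (permutation p = 0.00093 and 0.0039, adjusted p = 0.03 and 0.088), and r was 0.42 without the 2 arrays farthest in Nid1. With the group means left in, r between Nid1 and Timp3 was 0.08. Without preconditioned arrays 5 and 6, r was 0.46 for each of the 2 pairs, and neither passed (adjusted permutation p = 0.083 for each).

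Col4a1 and Col4a2 had r = 0.53 and rho = 0.46 (permutation p = 0.01 and 0.0077, adjusted p = 0.16 and 0.11). Without the 2 farthest arrays, r was 0.39. The pair did not pass.

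**Figure D4:**
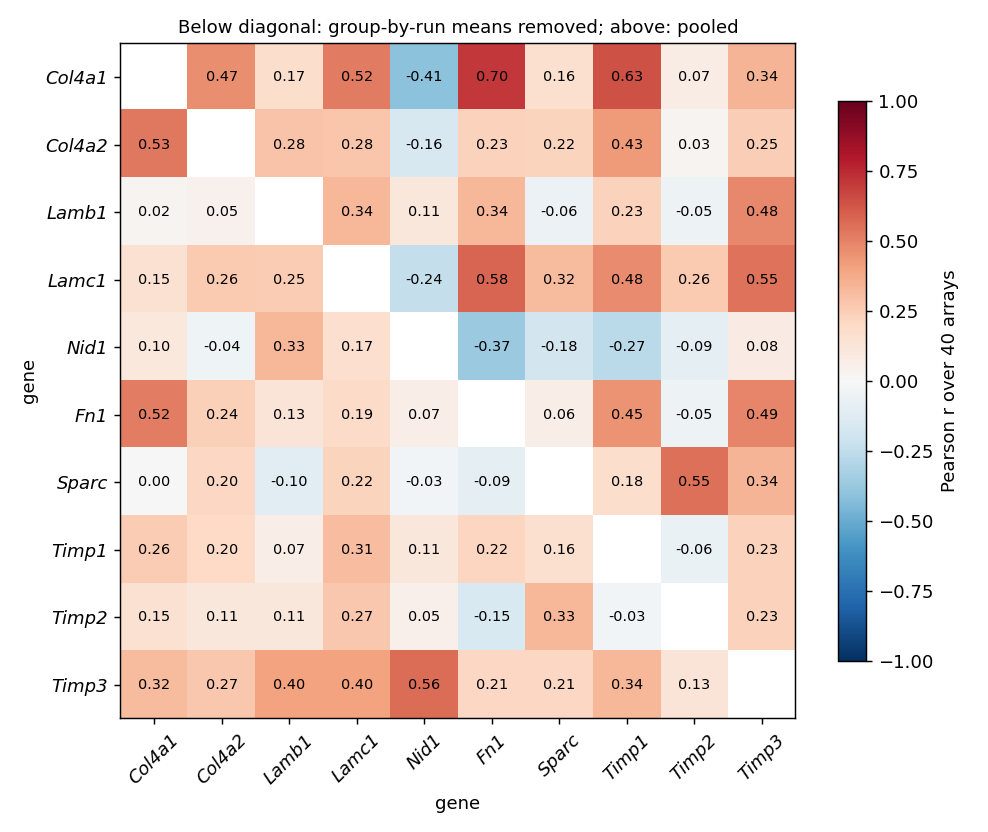
Pearson's r between each pair of the 10 genes over 40 arrays (colour and number), below the diagonal with the means of the 8 combinations of group and run removed and above it with them left in. Col4a1 with Fn1 is 0.52 below and 0.70 above, and Nid1 with Timp3 is 0.56 below and 0.08 above.

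**Figure D5:**
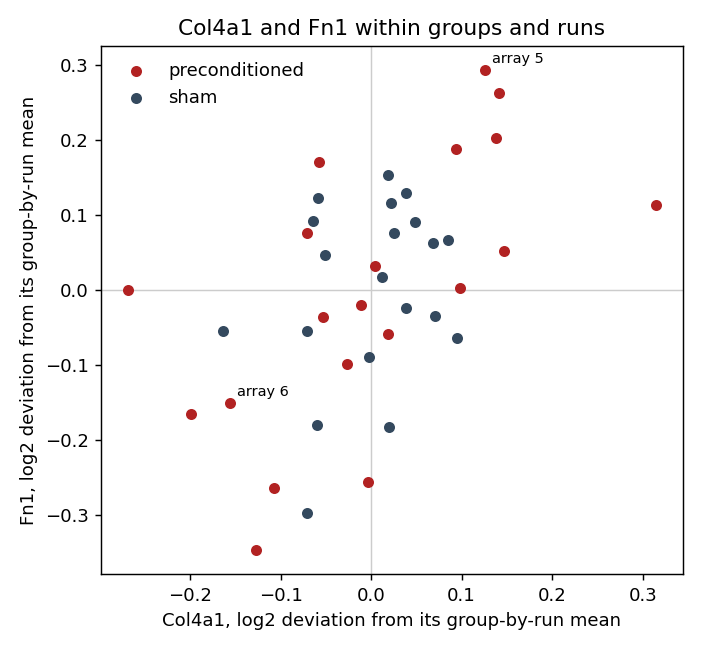
Deviation of Col4a1 (horizontal axis) and Fn1 (vertical axis) from the mean of their group and run, log2 intensity, for 20 preconditioned and 20 sham arrays. Preconditioned arrays 5 and 6 are named. The points give r = 0.52.

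The levels of the 10 genes were set beside the mean level of 5 lists of cell markers, again within groups and runs, which gave 50 pairs. Of these, 5 passed, all with r above 0. Col4a1 and Fn1 each followed the fibroblast and meningeal markers (r = 0.58 and 0.57, rho = 0.56 and 0.54, adjusted permutation p = 0.0035 and 0.0097). Timp1 followed the mural markers, those of pericytes and smooth muscle (r = 0.56, rho = 0.51, adjusted permutation p = 0.0097). Timp2 followed the astrocyte markers (r = 0.57, rho = 0.67) and the microglia and macrophage markers (r = 0.61, rho = 0.67, adjusted permutation p = 0.0035 for each r). With the endothelial markers, r was -0.04 for Col4a1 and -0.16 for Fn1, and neither passed. When the means of group and run were left in, these r values were 0.46 and 0.39. Those with the fibroblast and meningeal markers were then 0.14 and 0.24. The r values with the means left in were not tested.

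Between the groups, the summed intensity of 17 of 20 endothelial markers was 2532 to 3399 in preconditioned arrays, against 2441 to 2741 in sham arrays. The sum in numbers 1 to 5 was 2955 to 3399 in preconditioned arrays, against 2441 to 2740 in sham arrays. The sum in numbers 6 to 10 was 2733 to 3143 in preconditioned arrays, against 2569 to 2725 in sham arrays. The sums did not overlap in these 2 runs, in which Col4a1 and Fn1 were called, and they overlapped in the other 2. The median log2 difference of the 17 markers was 0.11 in numbers 1 to 5, 0.08 in numbers 6 to 10 and 0.03 over all arrays, with 12, 11 and 11 of the 17 above 0. Slc2a1 and Flt1 had far larger differences than these medians in numbers 1 to 5, at 1.46 and 1.16. The part of this shift in the results above was not tested.

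The sum of 20 of 20 fibroblast and meningeal markers was 3788 to 5051 in preconditioned arrays, against 4265 to 5282 in sham arrays. The sum of 10 of 14 mural markers was 812 to 1081 in preconditioned arrays, against 941 to 1148 in sham arrays. The sum of 13 of 14 astrocyte markers was 9613 to 16315 in preconditioned arrays, against 9251 to 12981 in sham arrays. The sum of 9 of 13 microglia and macrophage markers was 685 to 1500 in preconditioned arrays, against 632 to 1341 in sham arrays. All 4 ranges overlapped between the groups.

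Single endothelial markers passed the test. Vwf, the adhesive protein stored in endothelium, was higher over all arrays by 0.49 ± 0.07 (limma adjusted p = 7.5e-05), and in numbers 11 to 15 by 0.61 ± 0.13 (limma adjusted p = 0.030). Slc2a1, which carries glucose across brain endothelium, was higher by 0.68 ± 0.12 over all arrays (limma adjusted p = 0.00205). Kdr, a receptor of the vascular endothelial growth factor, was higher by 0.40 in numbers 1 to 5 and 0.53 in numbers 6 to 10 (limma adjusted p = 0.00412 and 0.000177). Tek, the angiopoietin receptor, was lower in numbers 6 to 10 by -0.51 ± 0.11 (limma adjusted p = 0.00624). Over all arrays Vwf and Slc2a1 were the 2 of 17 called higher, and none was called lower. Of the 17, 5 were called higher in numbers 1 to 5: those 2, Kdr, Flt1 and Pecam1. In numbers 6 to 10 Vwf, Slc2a1 and Kdr were called higher, and Tek and Abcb1a, an efflux pump of the barrier, lower. The shares of all probe sets called in these comparisons were 0.891%, 2.39% and 2.22%.

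Other markers that passed were Pdgfra of fibroblasts and oligodendrocyte precursors, Mrc1 of perivascular macrophages and Gfap and Aldoc of astrocytes. Over all arrays Pdgfra was higher by 0.22 ± 0.05 (limma adjusted p = 0.0307), Mrc1 by 0.37 ± 0.10 (limma adjusted p = 0.0425) and Gfap by 0.66 ± 0.14 (limma adjusted p = 0.00716). Gfap was also called higher in numbers 6 to 10, by 1.02 (limma adjusted p = 0.000902). In numbers 11 to 15, where 13 probe sets were called and Timp1 was 1 of them, Gfap was called higher by 1.07 (limma adjusted p = 0.00509). Pdgfra was also called higher in numbers 1 to 5 and 6 to 10, and Mrc1 in numbers 6 to 10. Higd1b, a pericyte marker, was lower in numbers 1 to 5 by -0.65 ± 0.14 (limma adjusted p = 0.00794). It was the only one of the 10 mural genes called in any comparison, as 4.33% of all probe sets were. Pdgfra was the only 1 of 20 fibroblast and meningeal markers called over all arrays, where 7 of 20 differences lay above 0 with a median of -0.06. Mrc1 was the only 1 of 9 microglia and macrophage markers called over all arrays, where 4 of 9 lay above 0 with a median of -0.04. Of the 13 astrocyte markers 2 were called over all arrays, and 8 lay above 0 with a median of 0.07. The share of all probe sets called over all arrays was 0.891%. The mural median was -0.07, with 3 of 10 above 0.

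For genes beyond the 10, a call in any of the 5 comparisons is counted, which 4.33% of all probe sets had. Of 18 other measured basement membrane genes, from 27 listed, 1 was called, a share close to that one. Lama4, the alpha4 chain of vascular laminin, was higher by 0.29 ± 0.05 over all arrays (limma adjusted p = 0.000332), by 0.26 ± 0.07 in numbers 1 to 5 (limma adjusted p = 0.0476) and by 0.44 ± 0.07 in numbers 6 to 10 (limma adjusted p = 0.000335). In numbers 11 to 15 and 16 to 20 its differences were 0.34 and 0.09 and missed the threshold. The median of the 18 differences over all arrays was 0.01, against 0.15 for the 10 genes and -0.02 for all named genes.

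Of 16 measured matrix proteases, from 26 listed, 3 were called in some comparison, all higher. Each comparison on its own called 1, 0, 2, 0 and 0 of the 16, over all arrays and then in the order of the runs. Htra1, a secreted serine protease, was higher over all arrays by 0.38 ± 0.10 (limma adjusted p = 0.0497). In numbers 6 to 10 Adamts9, a secreted metalloproteinase of the ADAMTS family, was higher by 0.88 ± 0.24 (limma adjusted p = 0.0393) and Ctsl, a cathepsin, by 0.24 ± 0.05 (limma adjusted p = 0.0116). Of 7 measured protease inhibitors other than those named above, from 11 listed, none was called in any comparison, and their median difference over all arrays was 0.03. Of 18 measured receptors of the matrix, from 21 listed, 1 was called, also close to the share of all probe sets. This was Sdc4, a cell-surface proteoglycan, higher in numbers 6 to 10 by 0.51 ± 0.13 (limma adjusted p = 0.0308).

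For Col4a1, Sparc and Timp1, the genes with the most similar pattern were taken from 10303 other named genes, by r within groups and runs over 40 arrays. For Col4a1 these were Scrib (0.65), Rnf220 (0.64), Prkar2a (0.64), Dcaf15 (0.63) and Pcbp2 (0.63). For Sparc they were Sobp (0.65), Eif2ak1 (0.63), Rbfox3 (0.63), Zmym5 (0.62) and Wdfy1 (0.62). For Timp1 they were Heph (0.66), Erc1 (0.65), Kmt5a (0.64), Ergic2 (0.63) and Tada2b (0.63). None of the 10 genes was among them. These are the highest of many values and are given as a description.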

How the data were processed

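The authors deposited 1 linear intensity value per probe set and array, and the software behind the values is not given in the sources used here. Without the lowest and highest 2% of probe sets, the mean intensity was about the same on all 40 arrays, so the deposited values had been scaled to a common mean. Of 31099 probe sets, 57 controls were left out. A floor of 16 was applied before log2 values were computed. At this floor lay 25.7% of all values and 0.149% of those kept. Probe sets whose mean reached the 40th percentile (intensity 31.9) were kept. No count or depth exists for arrays, and their number limits the precision. Genes were named from the platform annotation, only where a probe set had 1 gene.

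The group tests used limma 3.58.1 under R 4.3.3, with eBayes and its trend option, over all arrays without covariates and, for the runs, from 1 fit of 8 group-by-run means. That fit also gave the F-tests between runs. All tests were two-sided. Errors are standard errors of the fit unless marked SD. Correlations were computed in Python 3.11.15 with numpy 2.4.6, with 100000 permutations within groups and runs. Fits were tested on simulated data. Promoters came from the RefSeq table of GRCr8; the build of the array annotation was not matched to it.

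The genes and the lists were chosen with earlier results of these data known. All 10 genes were named, and of each of the 12 lists up to 5 genes called in any comparison by smallest adjusted p. For Col4a1, Sparc and Timp1 the 5 most similar genes were named. Alternatives were other normalizations, floors and filters, no mean trend, the second probe set of a gene, the run as a covariate or alone, a run left out, the sample number as a block, and each array left out.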

Additional observations from a re-analysis of the deposited data

Results flagged for a closer look

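Timp3 in sham array 19 read 362.5, while the other 4 sham arrays of numbers 16 to 20 read 304.6 to 316.5. Its gap to the nearest of them exceeded Dixon's 95% critical value for 5 samples. It was 1 of 80 sets of 5 arrays (10 genes, 2 groups, 4 runs), and chance gives about 1 in 20. The second probe set of Timp3 had an effect that differed between runs in limma's F-test (adjusted p = 0.0239), with differences of 0.49, 0.48, -0.04 and 0.14 in the order of the runs. Its first probe set had an adjusted p of 0.22.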

How the results depend on the processing

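No result changed direction past the threshold under any alternative. Over all arrays 3 of 10 genes were called. The count was 5 with the run as a covariate or with the average of the 4 run differences (4 higher and Nid1 lower), 1 without numbers 1 to 5, 1 without numbers 6 to 10 and 6 without numbers 16 to 20. In numbers 1 to 5 the count of 3 became 1 without a filter, 1 without preconditioned arrays 5 and 6, and 0 from the run's own 10 arrays. In numbers 6 to 10 the count of 2 became 4 after median centring, 4 with the second probe set, and 1 from the run alone. In numbers 11 to 15 the count of 1 became 2 after quantile normalization, with a filter at the 60th percentile, with the second probe set and without preconditioned arrays 5 and 6, and it became 0 without a filter and from the run alone. The test between runs called 0 genes, and 1 after median centring (Fn1), without preconditioned arrays 5 and 6 (Fn1) and with the second probe set (Timp3). Correlated pairs numbered 2, against 1 after median centring and 0 without preconditioned arrays 5 and 6. The cause of these changes was not tested.

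Leaving out each array in turn gave 2 to 5 calls over all arrays, the highest without preconditioned array 17. It gave 0 to 3 in numbers 1 to 5 (0 without preconditioned array 2 or 5), 2 to 3 in numbers 6 to 10, 0 to 1 in numbers 11 to 15 (0 without preconditioned array 12, among others) and 0 in numbers 16 to 20. The test between runs gave 0 to 1, with Fn1 called without preconditioned array 10 (limma adjusted p = 0.0226).

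Same-numbered samples of the 2 groups deviated together with r above 0 in 20 of 20 pairs and over 0.1 in 15 (range 0.03 to 0.39). Of the 40 samples, 36 correlated best with their own number among the 5 samples of the other group in their run. The median r was 0.16 for same-numbered samples, and -0.03 for differently numbered samples of the 2 groups in a run. This points to pairing by number in the data, which the labels do not name. The fits reported keep no block, so their p-values leave this pairing out. With the sample number as a replicate block, 4 genes were called over all arrays, 3 in numbers 1 to 5, 3 in numbers 6 to 10, 2 in numbers 11 to 15, 0 in numbers 16 to 20 and 1 in the test between runs (Fn1, limma adjusted p = 0.00534). The calls gained were Timp1 over all arrays (limma adjusted p = 0.0451), Lamc1 in numbers 6 to 10 (limma adjusted p = 0.0362) and Col4a1 in numbers 11 to 15 (limma adjusted p = 0.0374). Medians over all probe sets moved by under 0.1 on the log2 scale under each scaling.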
